A study of Mus musculus with 23 samples.

Results

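The 11 tumours described here were mouse mammary carcinomas from animals that received vehicle, and they were chosen by their group label alone, 11 of the 23 tumours in the series. All 11 came from mice given doxycycline at 6 weeks of age, randomized once tumours were established, and dosed daily by gavage with vehicle, with no drug. Tumour pieces were frozen once the 12th dose had been given. The labels used here name no transgene, promoter, strain, sex or vehicle composition, and the number of hours between the last dose and freezing is not legible in them. The titles number the tumours and name no animal, so the tests treat the 11 tumours as independent, and p-values measure only the spread between them.

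Expression was read as amplicon counts from total RNA of whole tumour pieces with an Ion AmpliSeq custom panel, a targeted assay in which 1 short product is amplified per gene for 3826 mouse genes. In whole tissue, fewer cells of a type and less RNA per cell cannot be told apart. Levels are given as counts per 1000000 counts (CPM) after scaling of the libraries by the trimmed mean of M-values (TMM), and differences between tumours as the SD of log2 CPM. The products are alike in length, so counts were not divided by length. Primer pairs can still differ in efficiency, and order between genes is therefore an order of amplicon reads. Gapdh, the glycolytic enzyme often used as an abundant reference, had only 50.7 ± 6.55 CPM (SD, n = 11), beside 28764 CPM for Actb.

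Mammary carcinomas are mixtures of malignant epithelium, fibroblasts, vessels and immune cells. In dividing cells, cyclin D with CDK4 or CDK6 phosphorylates RB1, which frees E2F factors to switch on genes of DNA replication. Genes of mitosis follow later in the cycle through the DREAM, MuvB and FOXM1 complexes, many of them through CCAAT boxes and CHR elements in their promoters. Interferon-stimulated genes are switched on through elements made of GAAA half-sites, bound by STAT and IRF factors.

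Genes of mitosis followed the proliferation gene Mki67 across these tumours, as described below. Promoters of Mki67 and of a pair of genes that rose with it are therefore shown first, with that of Isg15, the interferon gene used below as a reference. Sequences are from RefSeq, build GRCm38.p6, written 5′ to 3′ on the gene's strand, and stop at or before the first annotated transcribed base. Capitals mark CCAAT or TTTGAA (a CHR element) in the first 3, and in Isg15 a pair of GAAA half-sites 2 bases apart (the core of the interferon-stimulated response element), read on both strands. The windows are chr7:135716380-135716629 (minus strand), chr2:164769679-164769897 (plus strand), chr11:99024190-99024439 (minus strand) and chr4:156200819-156201068 (minus strand).
Mki67: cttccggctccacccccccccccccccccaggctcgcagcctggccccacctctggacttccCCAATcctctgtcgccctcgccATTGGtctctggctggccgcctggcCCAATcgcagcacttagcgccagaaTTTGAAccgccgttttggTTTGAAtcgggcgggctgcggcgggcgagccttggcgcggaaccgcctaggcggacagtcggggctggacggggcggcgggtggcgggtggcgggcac
Ube2c: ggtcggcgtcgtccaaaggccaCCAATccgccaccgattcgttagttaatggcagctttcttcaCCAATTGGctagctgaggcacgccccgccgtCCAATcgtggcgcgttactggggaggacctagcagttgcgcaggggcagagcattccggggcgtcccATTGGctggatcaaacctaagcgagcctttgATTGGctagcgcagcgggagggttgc
Top2a: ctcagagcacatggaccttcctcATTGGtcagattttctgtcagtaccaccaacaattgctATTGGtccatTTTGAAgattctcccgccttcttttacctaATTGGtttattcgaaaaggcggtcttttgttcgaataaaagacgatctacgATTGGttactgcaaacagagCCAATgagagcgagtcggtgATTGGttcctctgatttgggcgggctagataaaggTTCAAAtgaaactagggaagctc
Isg15: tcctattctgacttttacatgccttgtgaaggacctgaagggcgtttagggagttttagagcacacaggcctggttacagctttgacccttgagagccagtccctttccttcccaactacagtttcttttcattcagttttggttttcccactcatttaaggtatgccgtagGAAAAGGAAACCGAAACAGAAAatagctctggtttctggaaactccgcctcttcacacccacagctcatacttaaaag
The Mki67 stretch held 3 matches of CCAAT and 2 of TTTGAA. The Ube2c stretch held 6 of CCAAT and 0 of TTTGAA, and 2 of its CCAAT matches overlap on opposite strands. The Top2a stretch held 6 and 2. Isg15 held 3 overlapping matches of the half-site pair.

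Over windows of the 250 bases before the start, CCAAT was present in 33.9% of all 32851 RefSeq promoters and in 15 of the 19 promoters (79.0%) found for the mitosis list described below. TTTGAA was present in 16.0% of all promoters and in 9 of those 19 (47.4%). For the 63 genes that rose with Mki67 in the test below, whatever their list, 61 promoters were found for 48 genes. CCAAT was in 26 of these (42.6%) and TTTGAA in 12 (19.7%), nearer to all promoters than to the mitosis list. In the 3007 promoters found for tested panel genes, the set they were drawn from, the shares were 34.15% and 10.64%. The E2F-type letters TTTGGCGC or TTTCCCGC were in 1.30% of all promoters and in 0 of the 19. The GAAA half-site pair was in 2.98% of all promoters and in 3 of the 8 promoters of the interferon list. These matches are descriptions of letters in a window and are no evidence of binding.

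The tissue label was checked against the markers of epithelium. Epcam, an epithelial adhesion protein (chr17:87635979-87651129 in mm10), had 1244 ± 287 CPM and ranged from 835 in tumour 5 to 1831 in tumour 6. The luminal keratins Krt8 and Krt18 had 1261 ± 363 and 1329 ± 263 CPM, and the cadherin Cdh1 had 1988 ± 491 CPM. All 4 were high in all 11 tumours. Esr1, the oestrogen receptor, was low at 15.7 ± 9.36 CPM. Foxa1, its partner factor in hormone-sensing cells, had a median of 0.938 CPM and its highest value, 15.5, in tumour 8. Erbb2 had 79.3 ± 21.6 CPM, between 266 for Erbb3 and a median of 0 for Erbb4. No milk protein gene of the 7 listed was on the panel. The basal markers Krt14, Krt5 and Trp63 were also present in every tumour, and Krt14 ranged from 256 CPM in tumour 1 to 3168 in tumour 3 (median 471).

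Other cell types left unequal traces. Fibroblast and matrix genes were abundant, and the sum over 15 panel genes ranged from 6633 CPM in tumour 3 to 15253 in tumour 7 (median 12434). The sum over 9 macrophage genes ranged from 1588 CPM in tumour 8 to 3301 in tumour 5 (median 2557). The sum over 10 endothelial genes ranged from 409.9 CPM in tumour 8 to 870.4 in tumour 11 (median 515). T cell markers were sparse, since the sum over 15 genes ranged from 19.5 CPM in tumour 6 to 92.8 in tumour 7 (median 49.4), and Lat was at 0 counts everywhere. The B cell genes Ms4a1, Pax5, Blk and Cr2 had medians of 0, while Cd22 had 9.59 CPM. For mast cells the only panel gene, Cma1, had a median of 0.268 CPM. Sox10, a neural crest factor also made by mammary epithelium, had 1265 ± 278 CPM. The Schwann cell and myelin markers Mbp and S100b had medians of 0.803 and 1.14. Of the 8 genes listed for skeletal muscle, the panel held Mb (25.2 ± 6.83 CPM).

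The libraries held 3044380 to 4492736 counts, and 3242 to 3374 genes had at least 1 count. The 7SK RNA Rn7sk, a small nuclear RNA (chr9:78175303-78175633), took 6.62% of counts in tumour 8 and 23.2% in tumour 6. As a check for repeated libraries, the 55 pairs were compared, and chi-square divided by its degrees of freedom was at least 18.4, so no pair differed by counting error alone. Spearman correlations across genes ran from 0.951 to 0.990. Of 3826 genes, 182 had 0 counts in every tumour, and 2942 with a mean of at least 10 counts were kept for tests.

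The most abundant reads came from Rn7sk, at 133992 ± 62323 CPM. After it stood the cytoskeletal actin Actb (28764 ± 7556), the siderophore-binding lipocalin Lcn2 (27963 ± 10583) and the milk fat globule protein Mfge8 (27144 ± 9318). Osteopontin (Spp1, 22193 ± 11488) and the insulin-like growth factor binding protein Igfbp5 (20076 ± 6133) followed. Hspa8, Actg1, Eef2, Actn4, Fth1 and Cp completed the 12 highest, and together the 12 took 33.0% of counts. Actb and Actg1 encode near-identical proteins, and how reads were assigned between them is not given, so their separate levels are uncertain.

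These abundant genes were not level across tumours. Spp1 ranged from 3053 CPM in tumour 8 to 46718 in tumour 6. Lcn2 was 7018 in tumour 8 and between 16702 and 41415 in the other 10. Mfge8 was 9149 in tumour 8 and between 17660.4 and 38436 in the other 10. Tumour 8 was thus the lowest for all 3 secreted products. Actb and Actg1 were lowest in tumour 7, at 10359 and 5241 CPM, and their next lowest tumours stood at 24092 and 12885.

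Among the regulators of entry into the cell cycle, Rb1, the retinoblastoma protein, had 713 ± 143 CPM. Cyclin D1 (Ccnd1) had 487 ± 205 CPM and Cdk4 408 ± 135, while Cdk6 was lower at 35.7 ± 6.57. Cdkn2a, whose locus encodes the CDK4 inhibitor p16 and the ARF protein, had 118 ± 26.0 CPM. Cdk4 ran from 174 CPM in tumour 11 to 612 in tumour 8 and 633 in tumour 7. Ccnd1 was highest in tumours 3 and 7, at 872 and 853, and lowest in tumour 1 at 222. Cdk6 varied least of the 5, with an SD of log2 CPM of 0.26.

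**Figure D1:**
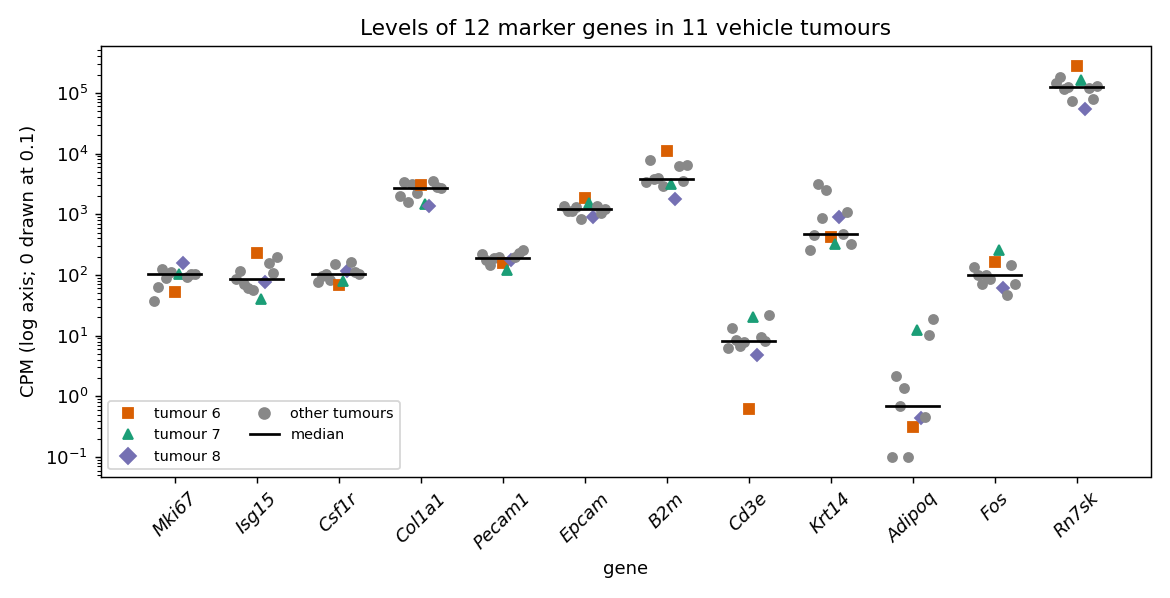
TMM-scaled CPM (log axis) of the reference genes of each cell type or programme in the 11 vehicle tumours, 1 point per tumour, with a bar at the median, 0 drawn at 0.1, and tumours 6, 7 and 8 marked. Epcam spans 835 to 1831 CPM, while Krt14 spans 256 to 3168 and Adipoq 0 to 18.8.

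The typical gene varied little. The median SD of log2 CPM was 0.34 over the 2942 tested genes, with quartiles of 0.25 and 0.48, and 381 genes had an SD under 0.2. Of the tested genes, 83 had an SD over 1. The steadiest among the 2613 tested genes with a mean of at least 10 CPM was Atp5l, a subunit of mitochondrial ATP synthase, at 680.0 ± 32.9 CPM and an SD of log2 CPM of 0.07. Ralb, Plp2, Psmd9, the cyclophilin Ppia, Coasy, Gna11 and catalase (Cat) followed. Ppia ranged only from 3489.6 to 4414 CPM.

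Among genes with a mean of at least 10 CPM, Hoxb8, a homeobox factor (chr11:96281905-96285315), had the largest SD of log2 CPM. It had 141 CPM in tumour 11 and at most 3.59 in the others. It was listed at 0 in tumours 4 and 7. Zbtb16, a zinc finger repressor (chr9:48654297-48836222), ranged from 2.84 CPM in tumour 8 to 175 in tumour 1 (median 53.1). Krt5, a keratin of basal cells (chr15:101707070-101712898), ranged from 11.4 CPM in tumour 8 to 1567 in tumour 3 (median 197). The desmosomal cadherin Dsg3 ranged from 0.928 CPM in tumour 7 to 92.4 in tumour 5 (median 10.3). These wide ranges did not follow 1 order of tumours, since tumour 8 was lowest for Zbtb16 and Krt5 but not for Dsg3.

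The rest of the 12 most variable genes were Des, Hoxb4, Col2a1, Hoxb2, Defb1, Ccl8, A2m and Fabp3. Desmin (Des), an intermediate filament of muscle, had 157 CPM in tumour 6 and at most 9.62 elsewhere. Casq1, calsequestrin of skeletal muscle, was also highest in tumour 6, at 29.9 CPM, while Mb in that tumour was 31.5 and within the range of the others. The chemokine Ccl8 ranged from 2.58 CPM in tumour 3 to 76.5 in tumour 10 (median 27.1), and the cartilage collagen Col2a1 ranged from 0.945 CPM in tumour 6 to 33.2 in tumour 8 (median 8.97). In all, 9 tested genes stood at least 4-fold above the next tumour. They were Meis1 in tumour 3, Cst6 in tumour 5, Des and Casq1 in tumour 6, Dlx5, Enpp2, Hopx and Dchs2 in tumour 8, and Hoxb8 in tumour 11.

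**Figure D2:**
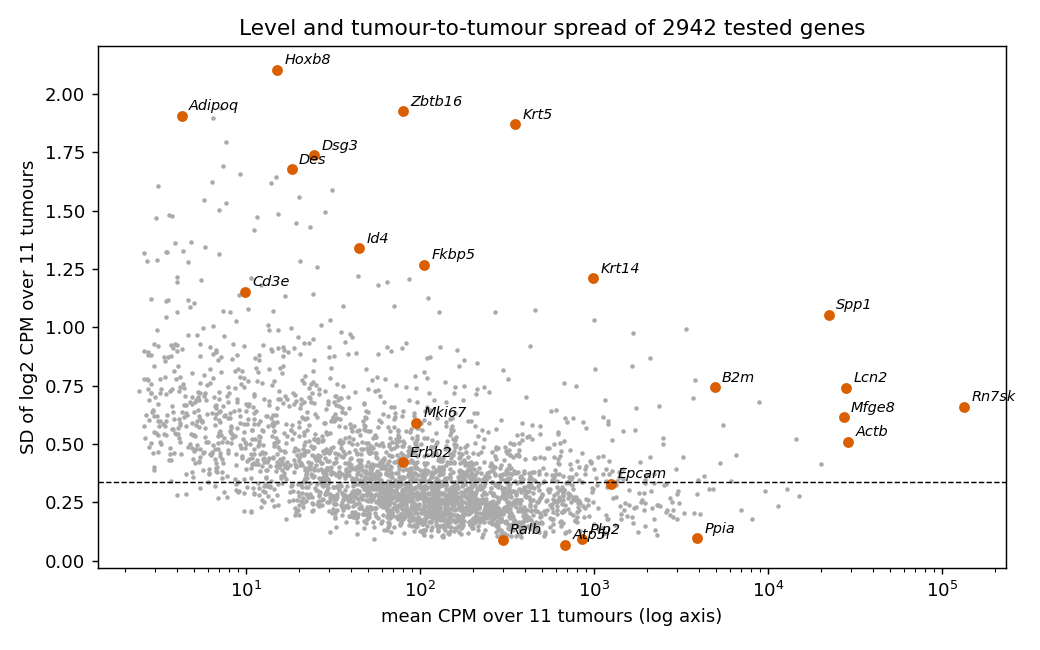
Mean level (CPM, log axis) against the SD of log2 CPM for the 2942 tested genes over the 11 vehicle tumours, 1 point per gene, with named genes in orange and the median SD of 0.34 as a dashed line. Hoxb8, Zbtb16, Krt5 and Dsg3 lie near the top, at 2.11, 1.93, 1.87 and 1.74, and Atp5l lies at the bottom, at 0.07.

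Principal components of log2 CPM gave the main axes of difference, as a description. The first 3 held 30.7%, 15.5% and 12.2% of the variance. On the first, tumour 8 stood alone at -32.8 and tumour 6 was at the other end at 19.5. These tumours also had the lowest and highest share of Rn7sk, at 6.62% and 23.2% of counts. Against that share the first component had r = 0.73 (permutation p = 0.0139, adjusted p = 0.147 over 27 relations with depth measures). Spearman's rho was also 0.73 (adjusted p = 0.0794), and r was 0.43 without tumours 6 and 8. The part of Rn7sk in this component was not tested. Zbtb16, Sftpd, A2m, Ccl28, Defb1 and Gstk1 loaded towards tumour 6, and Hopx, S100a4, Il33, Id4, Dlx5 and Fgfbp1 towards tumour 8. S100a4, a calcium-binding protein of mesenchymal and motile cells, was 343 CPM in tumour 8 and 21.7 in tumour 6. Id4, an inhibitor of basic helix-loop-helix factors, was 175 and 10.7.

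The second component set tumour 7 apart at -26.7. Ccl8, Selp, Darc, Bmper, Aqp2 and Adipoq loaded towards it, and Selp (P-selectin) and Darc (an atypical chemokine receptor) were highest there, at 21.3 and 25.4 CPM. The endothelial list did not follow them, since its mean of centred log2 CPM was -0.18 in tumour 7 and Pecam1 was lowest there, at 120.3 CPM. The third held tumours 3 and 5 together, at 12.9 and 14.7, with Krt5, Il24, Krt15, Aqp3, Vsnl1 and Trp73 towards them. The same pair of tumours led for basal keratins. Krt14 was 3168 and 2527 CPM in tumours 3 and 5 and between 256 and 1096 in the other 9. Krt5 was 1567 and 782 in that pair, and Trp63, the master factor of basal cells, was 72.0 and 63.7, with 59.4 in tumour 7 the next highest.

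Mki67, a nuclear protein of dividing cells (chr7:135689784-135716361), served as the reference for proliferation. It had 37.1 CPM in tumour 1, 64.0 in tumour 2, 124 in tumour 3, 90.4 in tumour 4, 112 in tumour 5, 52.9 in tumour 6, 102 in tumour 7, 157 in tumour 8, 91.7 in tumour 9, 104 in tumour 10 and 102 in tumour 11. Tumours 1, 6 and 2 were low, tumour 8 was high, and the other 7 lay between 90.4 and 124.

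Genes of mitosis rose with Mki67 across the tumours, and a smaller group fell. In edgeR's quasi-likelihood test of the slope of each gene on log2 CPM of Mki67, 63 of 2941 genes (2.14%) rose and 26 (0.884%) fell at a Benjamini-Hochberg adjusted p under 0.05, or 3.03% in either direction. A slope of 1 means that a gene doubled where Mki67 doubled. Of the 24 mitosis genes on the panel, the 23 other than Mki67 had positive slopes, with a median of 1.05 against 0.02 over all genes, and 17 of the 23 passed. DESeq2 passed 219 genes (7.45%) and limma-voom 84 (2.86%), and 79 genes passed by all 3 tools.

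Kif20a, a kinesin of the central spindle, ranged from 28.4 CPM in tumour 1 to 165 in tumour 8 (median 75.8). Its slope was 1.05 (SE 0.127), with an edgeR adjusted p of 0.000612. The ubiquitin-conjugating enzyme Ube2c, which serves the anaphase-promoting complex, ranged from 72.6 CPM in tumour 1 to 393 in tumour 8 (median 154). Its slope was 1.10 (SE 0.135). Both genes were lowest in tumour 1 and highest in tumour 8, as Mki67 was.

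Topoisomerase II alpha (Top2a, chr11:98992943-99024189) ranged from 58.3 CPM in tumour 1 to 405 in tumour 8 (median 147), with a slope of 1.19 (SE 0.163) and an edgeR adjusted p of 0.00116. Its value in tumour 8 was well above the 198 CPM of the next tumour, tumour 5. Cyclin B1 (Ccnb1) ranged from 49.3 CPM in tumour 1 to 271 in tumour 8 (median 105) with a slope of 1.10, and cyclin A2 (Ccna2) ranged from 74.4 CPM in tumour 1 to 441 in tumour 8 (median 147) with a slope of 1.20. The microtubule proteins Kif2c and Nusap1 had slopes of 1.26 and 1.06. The 6 mitosis genes that missed the threshold were Ect2, Cdc25c, Plk1, Smc4, Nek2 and Foxm1, with slopes from 0.48 for Smc4 to 1.09 for Cdc25c and edgeR adjusted p from 0.0586 to 0.157.

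**Figure D3:**
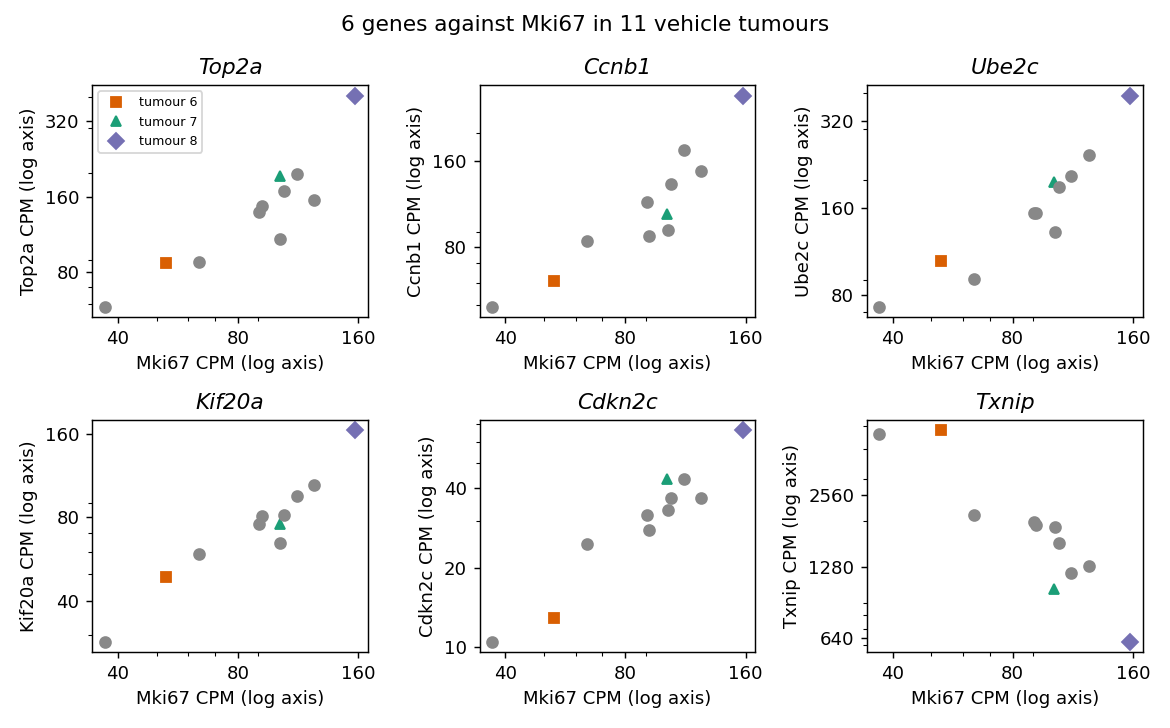
CPM of 6 genes (vertical log axes) against CPM of Mki67 (horizontal log axis) in the 11 vehicle tumours, 1 point per tumour, with tumours 6, 7 and 8 marked. Top2a, Ccnb1, Ube2c, Kif20a and Cdkn2c climb from tumour 1 to tumour 8, while Txnip falls.

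Genes of DNA replication had slopes of the same sign. All 14 tested members had positive slopes, with a median of 0.69, and 5 passed: the helicase subunits Mcm3 and Mcm4, the thymidylate synthase Tyms, and cyclins E1 and E2 (Ccne1 and Ccne2). Mcm3 ranged from 22.4 CPM in tumour 1 to 96.9 in tumour 8 (median 49.0) with a slope of 0.93 (SE 0.147). Dnmt1, the maintenance DNA methyltransferase, ranged from 204 CPM in tumour 6 to 275 in tumour 8 (median 223) and had a slope of 0.10 with an edgeR adjusted p of 0.616. No test of the difference between the 2 lists was run.

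Of 21 CDK, cyclin and RB regulators, 1 passed, a share near the 3.03% over all genes. Cdkn2c, which encodes the CDK4 and CDK6 inhibitor p18 (chr4:109660876-109667189), ranged from 10.5 CPM in tumour 1 to 66.5 in tumour 8 (median 33.1). Its slope was 1.26 (SE 0.157), with an edgeR adjusted p of 0.000612, so the inhibitor was most abundant where Mki67 was. Cdk4, Cdk6, Ccnd1 and Rb1 had slopes of 0.42, 0.13, 0.72 and -0.21, and their edgeR adjusted p-values were 0.272, 0.680, 0.102 and 0.475.

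Of the 26 genes that fell with Mki67, the 6 of smallest p are given. Txnip, the thioredoxin-binding arrestin that limits glucose uptake (chr3:96557957-96561883), ranged from 620.3 CPM in tumour 8 to 4805 in tumour 6 (median 1875). Its slope was -1.37 (SE 0.170), with an edgeR adjusted p of 0.000612. Scd1, the stearoyl-CoA desaturase, ranged from 826 CPM in tumour 8 to 8256 in tumour 6 (median 2863) with a slope of -1.37 (SE 0.252). Both were high in tumours 1 and 6, the pair with the lowest Mki67. Irs2, an adaptor of the insulin receptor, had a slope of -1.01, the survival protein Bcl2l1 -0.76, the interleukin receptor chain Il15ra -0.78 and the acetylcholine receptor subunit Chrnb1 -0.58.

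No tested member of the macrophage, T cell, fibroblast, endothelial, luminal, basal, adipocyte or interferon lists passed in the Mki67 fit. With 6 to 15 tested genes in each list and 3.03% called over all genes, a count of 0 is near the background. The basal list had positive slopes for 7 of 7 genes, the endothelial list negative slopes for 9 of 9 and the interferon list for 8 of 8. Over all genes 52.8% of slopes were positive. The other lists were mixed, with positive to negative slopes of 6 to 3 for macrophages and 4 to 2 for T cells. Fibroblasts had 7 to 8, luminal genes 5 to 9 and adipocytes 2 to 5. Members of a list were measured in the same 11 tumours and are not independent, so these counts are a description. Rn7sk moved against Mki67 over the tumours (r = -0.72, permutation p = 0.0124, n = 11, adjusted p = 0.163 over 66 pairs, and r = -0.80 without tumours 1 and 6). Against the share of Rn7sk in the library, Mki67 had r = -0.63 (adjusted p = 0.172 over 27 relations with depth measures) and rho = -0.80 (permutation p = 0.00477, adjusted p = 0.0429), so the relation passed by rank, and r was -0.37 without tumours 6 and 8. With Rn7sk as a second covariate, 0 genes passed and the edgeR adjusted p of Kif20a was 0.118, with a slope of 1.00. Over the 22 alternatives run, the adjusted p of Kif20a otherwise stayed under 0.05. The part of Rn7sk in the result was not tested further.

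Without tumour 8, the highest in Mki67, 19 genes passed in place of 89, and 12 of the 23 mitosis genes. The total was 136 without tumour 1, 146 without tumour 3, 57 without tumour 2 and 54 without tumour 6. Scd1, Chrnb1, Irs2 and Bcl2l1 missed the threshold without tumour 8, and Bcl2l1 also without tumour 1, while the 8 rising genes named above passed with each tumour left out. When libraries were scaled by their totals the split was 600 positive to 36 negative, and by housekeeping genes 245 to 49, in place of 63 to 26. Under those scalings the median slope of all genes moved to 0.21 and 0.15, while each slope was still tested against 0.

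With TMM scaling and all 11 tumours, more genes passed in the Epcam fit than in the Mki67 fit, but the order turned under other settings. Against Mki67, Epcam had 0 genes to 636 with library totals, 3 to 294 with housekeeping genes, 25 to 54 without tumour 6 and 0 to 14 without tumours 6 and 8. Of 2941 genes, 175 (5.95%) rose with Epcam and 178 (6.05%) fell by edgeR's quasi-likelihood test, 12% in either direction. DESeq2 passed 545 (18.5%) and limma-voom 338 (11.5%), and 319 passed by all 3 tools. Calu, a calcium-binding protein of the secretory pathway, ranged from 217 CPM in tumour 5 to 553 in tumour 6 (median 288) with a slope of 1.07 (SE 0.153). Itfg1, the serine protease Prss23, the stimulatory G protein Gnas, Ltbp2, Kat2b, the secretory stress protein Serp1 and Larp1 followed. The checkpoint protein gene Rad9a ranged from 36.2 CPM in tumour 6 to 101 in tumour 5 (median 53.5) with a slope of -1.45 (SE 0.186). Gnl2, the adenylyl cyclase Adcy7, Usp22, Smarcc1 and the kinase Jak3 also fell.

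The other luminal genes did not move as 1 group with Epcam. Of 13 tested, Krt8 (slope 0.99) and Esr1 (2.16) rose and Cdh1 fell (slope -0.90, SE 0.220, edgeR adjusted p = 0.0234). Krt18 had a slope of 0.63 with an edgeR adjusted p of 0.0521. Cdh1 was highest in tumours 8 and 5, at 2856 and 2622 CPM, where Epcam was lowest, at 902 and 835. It was lowest in tumour 6, at 1229.9 CPM, where Epcam was highest. These 2 epithelial markers thus moved in opposite directions (r = -0.83 across the 11). Theirs was the lowest r of the 91 pairs of luminal genes, whose median was 0.27.

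Epcam also moved with the share of Rn7sk in the library (r = 0.86, permutation p = 0.00097, adjusted p = 0.0262, n = 11), the only 1 of 27 relations with depth measures to pass on Pearson's r. Spearman's rho was 0.84 (adjusted p = 0.0429), and r was 0.70 without tumours 6 and 8. By rank 3 of the 27 relations passed, those of the Rn7sk share with Epcam, with Mki67 (above) and with Csf1r (rho = -0.81, permutation p = 0.00438, adjusted p = 0.0429, r = -0.70 with adjusted p = 0.147). The count of genes in the Epcam fit was 0 with Rn7sk as a second covariate, 0 when libraries were scaled by their totals and 3 when scaled by housekeeping genes. It was 25 without tumour 6, 180 without tumour 8, 199 without tumour 5, 205 without tumour 10 and 632 without tumour 7. Of the 8 housekeeping genes used for scaling, 2 had themselves risen with Epcam under TMM scaling, against 5.95% of all genes. Their median r with Epcam was 0.61. Without tumour 6, Gnas, Kat2b, Larp1, Prss23, Serp1, Krt8, Esr1 and Cdh1 missed the threshold, Esr1 and Cdh1 did so without tumour 5 and Cdh1 without tumour 8, while Krt18 passed without tumour 7 or tumour 8. The part of library composition in these slopes was not tested.

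Isg15, an interferon-stimulated ubiquitin-like protein (chr4:156199424-156200818), ranged from 40.5 CPM in tumour 7 to 231 in tumour 6 (median 84.6). Tumours 6, 11 and 9 were high, at 231, 195 and 159 CPM. No gene passed in edgeR's test of the slope on Isg15, with 338 genes at an unadjusted p under 0.05, while DESeq2 passed 21 (0.714%) and limma-voom 3 (0.102%). The genes nearest to the threshold were Phf11d, Ube2l6 and Irf7, with edgeR adjusted p-values of 0.0676, 0.0769 and 0.0769. Irf7, the master interferon factor, ranged from 13.9 CPM in tumour 7 to 157 in tumour 11 (median 78.2) with a slope of 0.95. All 7 other interferon genes on the panel had positive slopes, with a median of 0.45 against -0.01 over all genes. Without tumour 7, which was lowest for both Isg15 and Irf7, 4 genes passed, Irf7 among them.

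The macrophage, fibroblast and endothelial references also had 0 genes past the threshold in edgeR's test. Csf1r, the receptor for colony-stimulating factor, ranged from 68.0 CPM in tumour 6 to 161 in tumour 9 (median 104), with 246 genes at an unadjusted p under 0.05 and 0 by DESeq2 or limma-voom. The collagen Col1a1 ranged from 1362 CPM in tumour 8 to 3529 in tumour 9 (median 2691), with 406 genes at an unadjusted p under 0.05, 38 by DESeq2 (1.29%) and 0 by limma-voom. The endothelial adhesion protein Pecam1 ranged from 120.3 CPM in tumour 7 to 257 in tumour 11 (median 192), with 227 genes at an unadjusted p under 0.05, 1 by DESeq2 (0.034%) and 0 by limma-voom.

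Genes of 1 programme moved together to very different degrees. The median correlation between pairs of genes within a list, over 11 tumours, is a description beside a median of 0.00 over all 4326210 pairs of tested genes. It was 0.86 over the 276 pairs of mitosis genes and 0.68 over replication genes. Cyclin A2 (Ccna2) and the motility receptor Hmmr were nearest, at 0.98. The fibroblast list had 0.63, with decorin (Dcn) and Mmp2 at 0.98. Dcn ranged from 71.7 CPM in tumour 3 to 403 in tumour 10 (median 216).

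The interferon list had a median of 0.53, the class II list 0.51 and the basal list 0.48. Within the interferon list the antiviral synthetase Oas1a and Herc6 reached 0.93. The class I list had a median of 0.30, with pairs from -0.48 (Psme2 and Calr) to 0.91 (B2m and the immunoproteasome subunit Psmb10). B2m, the light chain of class I molecules, ranged from 1812 CPM in tumour 8 to 11129 in tumour 6 (median 3854). The T cell list had 0.43, hypoxia 0.37, endothelium 0.32, luminal 0.27 and macrophages 0.21. The ERBB receptors and ligands (0.08) and pericyte genes (0.13) moved together least, near the level of all pairs. The lists also differ in level, with a median sum of 49.4 CPM for T cell genes and 12434 for fibroblast genes. The part of level and counting error in these correlations was not tested.

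**Figure D4:**
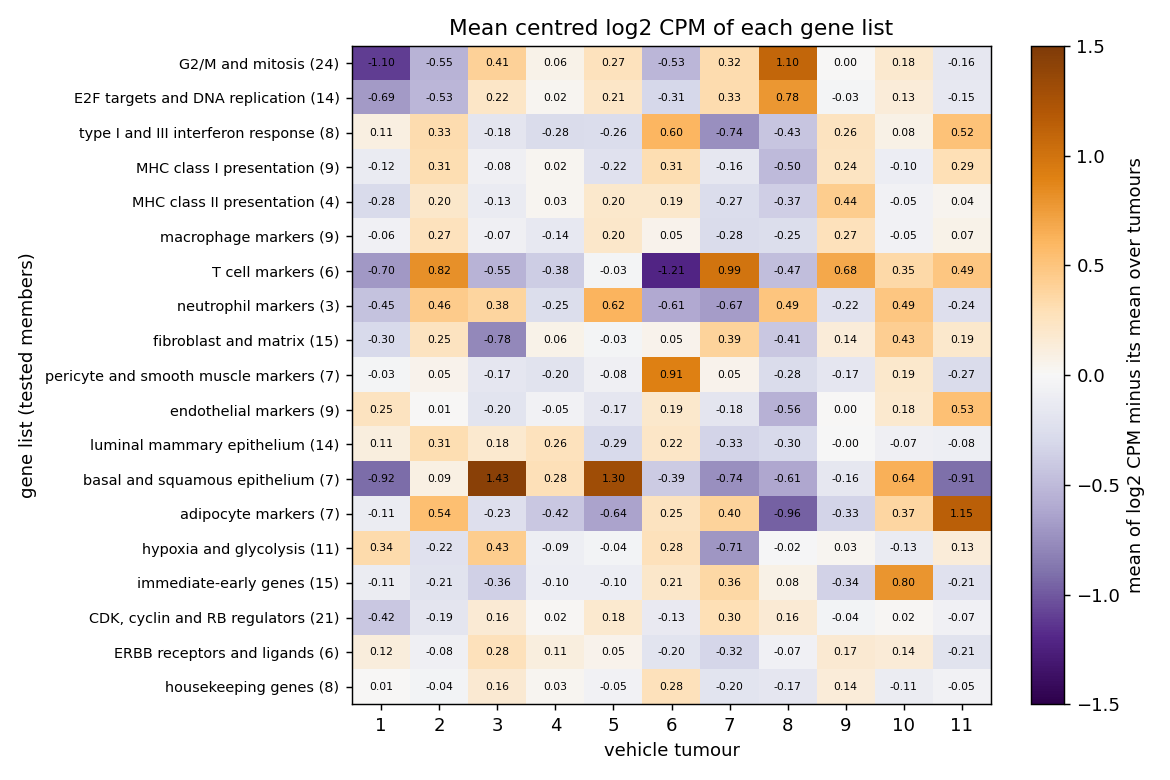
Mean of centred log2 CPM over the tested genes of each list (rows) in each of the 11 vehicle tumours (columns), coloured from low (purple) to high (orange) with the value printed. The mitosis row is -1.10 in tumour 1 and 1.10 in tumour 8, and the basal row is 1.43 and 1.30 in tumours 3 and 5.

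The immediate-early genes, which many cells switch on within minutes of stress or handling, had a median of 0.23. Egr2 and Egr3 were the closest pair at 0.94, and both were highest in tumour 10, at 21.7 and 45.1 CPM. Nr4a1 and Atf3 were also highest in tumour 10, at 657 and 58.9 CPM, against medians of 136 and 9.93. Fos was instead highest in tumour 7, at 260.4 CPM. The lowest pair of immediate-early genes was Egr1 and Nr4a1, at -0.51. Among ERBB genes, pairs ran from -0.74 (Erbb3 and Tgfa) to 0.86 (Erbb3 and Egfr). Cell cycle regulators had a median of 0.18, with pairs from -0.71 (Ccnd2 and Cdkn1c) to 0.89 (Cdk4 and E2f2).

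The hypoxia and glycolysis list was led by the enolase Eno1, with a median of 3761 CPM. The glucose transporter Slc2a1 ranged from 184 CPM in tumour 7 to 489 in tumour 3 (median 328). Slc2a1 and lactate dehydrogenase (Ldha) had an r of 0.90 over the 11 tumours. The adipocyte list had a median of 0.19, and its closest pair, Adipoq and Fabp4, had 0.79. Both were highest in tumour 11, at 18.8 and 184 CPM. Adipoq was listed at 0 in tumours 1 and 5.

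The 12 reference genes of the cell types and programmes formed 66 pairs. No pair passed after Benjamini-Hochberg adjustment over the 66, and 13 had an unadjusted permutation p under 0.05. Isg15 and B2m had r = 0.78 and rho = 0.75 (permutation p = 0.00443 and 0.00975, n = 11, adjusted p = 0.0975 and 0.0917), and r fell to 0.60 without tumours 6 and 11. Csf1r and Epcam had r = -0.65 (permutation p = 0.0294, adjusted p = 0.215) and rho = -0.63, and r was -0.92 without tumours 6 and 9. With 1 tumour left out, 4 pairs passed without tumour 1, 2 without tumour 9, 1 without tumour 2 and 1 without tumour 7, and 0 otherwise. Epcam and Rn7sk had the smallest p (r = 0.86, permutation p = 0.00099, adjusted p = 0.0653), with r = 0.75 without tumours 5 and 6. B2m and Rn7sk came next (r = 0.81, permutation p = 0.00264, adjusted p = 0.0871), with r = 0.50 without tumours 6 and 8. Csf1r and Rn7sk had r = -0.67 (permutation p = 0.0241, adjusted p = 0.215), with r = -0.73 without tumours 6 and 9. The part of Rn7sk in the other pairs of B2m, Epcam and Csf1r was not tested.

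Col1a1 and B2m had r = 0.74 (permutation p = 0.00871, adjusted p = 0.144), and r fell to 0.58 without tumours 7 and 8. Csf1r and Fos had r = -0.71 (permutation p = 0.0153, adjusted p = 0.168), and r was -0.52 without tumours 6 and 9. Mki67 and Krt14 had r = 0.60 (permutation p = 0.0484, adjusted p = 0.246), with both high in tumour 3 and both low in tumour 1. Without tumours 1 and 6, r for this pair fell to 0.46. With 11 tumours only strong relations can pass over 66 pairs, and a p that misses the threshold does not show that the genes are unrelated.

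**Figure D5:**
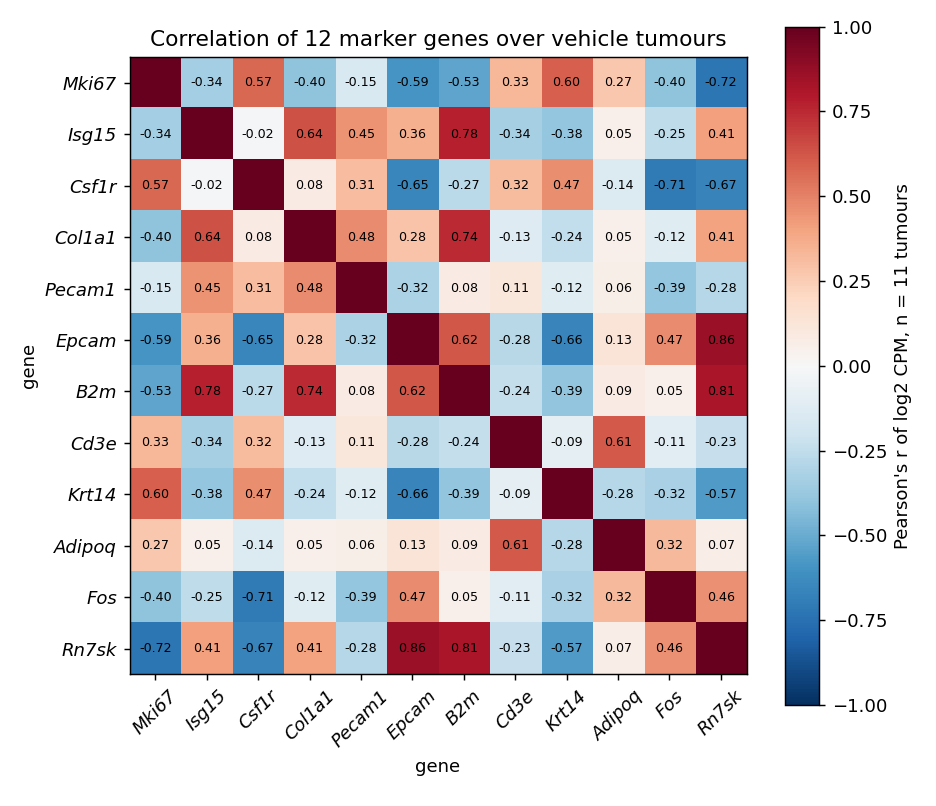
Pearson correlation of log2 CPM over the 11 vehicle tumours for each pair of the 12 reference genes, from -1 to 1. The largest is 0.86 for Epcam and Rn7sk, and the most negative are -0.72 for Mki67 with Rn7sk and -0.71 for Csf1r with Fos.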

How the data were processed

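The authors deposited whole-number counts per gene, 1 amplicon for each of 3826 genes, and the count table was used as deposited. Reads were placed on build mm10, per the submitters' processing notes. Aligner, counting tool and use of strand: not given in the sources used here, so overlapping and antisense genes cannot be told apart. The products carry no molecular identifiers. Only the 11 vehicle columns were used, and no comparison with drug was made.

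In R 4.3.3 with edgeR 4.0.16, genes with a mean count of at least 10 over the 11 tumours were kept (2942, with 884 set aside), libraries were scaled by TMM, and log2 CPM used a prior count of 2. Covariation was tested with glmQLFit and glmQLFTest as the slope of each gene on log2 CPM of 1 reference gene, the reference left out, two-sided, with Benjamini-Hochberg adjustment at 0.05 over all 2941 genes. The common biological coefficient of variation was 29.0%. Correlations between reference genes, and with total counts, detected genes and the Rn7sk share, used two-sided permutation tests with 100000 resamples. DESeq2 1.42.0 and limma 3.58.1 (voom) were alternatives, with other scalings, count filters, rank covariates and each tumour left out.

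The test was checked on simulated data for the Mki67 slope over 2941 genes: it recovered 19 of 67 genes with a slope of 0.5, 50 of 67 with a slope of 1 and 59 of 66 with a slope of 1.5, and it called 8 of 2741 unchanged genes. Gene positions are from the GENCODE annotation of the same build, which held 3750 symbols as written and 67 under an older name, leaving 9 without a match. Promoter letters were found for 48 of the 63 genes that rose with Mki67.

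Named genes were the reference genes, per reference the 8 rising and 6 falling genes of smallest p past the threshold and up to 4 of its list (and listed genes that missed where 4 or fewer did), the 12 highest genes, the 12 most and 8 least variable, per list the first 3 members and the members of highest and lowest mean and largest SD, the 6 largest loadings in each direction of 3 components, and Cdk4, Cdk6, Ccnd1, Rb1, Cdkn2a and Erbb2. Other genes named, such as those counted by name in a list or highest in 1 tumour, were chosen after their values were seen. The lists and members were chosen with earlier results of these data known.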

Additional observations from a re-analysis of the deposited data

How the results depend on the processing

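No paired analysis was possible because only vehicle tumours were used and no groups were compared, so replicate numbers pair nothing here. The number of genes covarying with Mki67 (89) was 636 with library totals as scaling, 294 with housekeeping genes, 219 by DESeq2 and 134 with the rank of Mki67, and it ran from 19 to 146 with 1 tumour left out. The number for Epcam (353) was 0 with library totals, 3 with housekeeping genes, 545 by DESeq2 and 211 with the rank, and ran from 25 to 632 with 1 tumour left out. Isg15 (0) had 21 by DESeq2, 3 by limma-voom and 0 to 4 with 1 tumour left out. Col1a1 (0) had 38 by DESeq2 and 0 to 1, and Pecam1 (0) had 1 by DESeq2 and 0 to 1. Csf1r stayed at 0 under all of these. The 83 genes with an SD of log2 CPM over 1 became 62 to 94, and the 0 pairs of reference genes past the threshold became 0 to 4, with 1 tumour left out.

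Alternatives chosen after seeing the data were the removal of tumours 7 and 8, the removal of tumours 6 and 8, and Rn7sk as a second covariate. The count for Mki67 was then 23, 14 and 0, that for Epcam 410, 0 and 0, that for Isg15 4 without tumours 7 and 8, and 51 genes had an SD over 1 without tumours 7 and 8. Of 1056 single-gene slopes recomputed, 935 kept direction and side of the threshold, 106 kept direction but no longer passed, 13 newly passed and 2 changed sign. The sign changes were the slope of Cx3cr1 on Csf1r (-0.0146 without tumour 9, up to 0.862 without tumour 6) and the slope of Eng on Pecam1 (-0.0387 without tumour 11, up to 1.48 without tumour 7). The cause of these shifts was not tested. Counting error is larger for genes near the filter of a mean of 10 counts, and the number of tumours also limits precision.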

Other observations

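Some genes of the HoxB cluster of homeobox genes, which set position along the body axis, were high in 1 or 2 tumours. The panel held 34 Hox genes, 9 of them from HoxB, and 8 of the 34 had enough counts to be tested. Hoxb2 (chr11:96350525-96354012) was 161 CPM in tumour 11 and 95.4 in tumour 8, and at most 13.6 in the other 9. Hoxb3 (chr11:96323326-96347930) was 50.6 and 28.9 CPM in the same pair, and at most 4.92 elsewhere. Hoxb4 (chr11:96318267-96321638) was 74.7 and 49.4 CPM, and at most 8.42 elsewhere. These 3 neighbouring genes were therefore high in the same 2 tumours.

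Hoxb5 and Hoxb8 differed from them. Hoxb5 (chr11:96303336-96306121) was 15.6 CPM in tumour 11 and 0.875 in tumour 8, and Hoxb8 was 141 and 2.62. Hoxb7, which lies between these genes, had at most 0.265 CPM in any tumour, and Hoxb1 and Hoxb13 at the ends of the cluster had 0 counts. Hoxb9 had 6.63 CPM in tumour 11, 4.54 in tumour 9 and 2.69 in tumour 1, and at most 1.64 elsewhere. No gene of the HoxA, HoxC or HoxD clusters exceeded 15.8 CPM. Since the use of strand is not given, reads from antisense transcripts of the cluster cannot be told apart. The genes were chosen after their values were seen, and no test was made.

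Zbtb16 and Fkbp5, both known targets of the glucocorticoid and progesterone receptors, spanned wide ranges. Zbtb16 was 175 CPM in tumour 1, 174 in tumour 6, 155 in tumour 11, and at most 19.4 in tumours 5, 7, 8 and 10. Fkbp5 was 208 CPM in tumour 11 and 156 in tumour 6, and at most 36.0 in the same 4 tumours. Fkbp5 was chosen after its values were seen. Activity of these receptors and the cause of the ranges were not tested. Whether the hour of freezing or handling differed between tumours is not given in the labels.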
